A study of Mus musculus with 56 samples.

Results

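The genes described here are 38 genes of the sterol regulatory element-binding protein (SREBP) pathway, taken by name from the 17027 genes of a kidney expression table. They fall into 5 regulators, 19 genes of cholesterol synthesis and sterol handling, called the sterol arm, and 14 genes of fatty acid and glycerolipid synthesis, called the fatty acid arm. All 38 were found in the table, and all 38 were among the 11896 genes with a mean of at least 1 TPM (read abundance corrected for gene length and library depth) that were tested. The membership was set by name and not by a cut on measured values, but it was chosen with earlier results of these data known.

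Kidneys came from 56 female C57BL/6J mice, 9 weeks old, held under 12 h light and 12 h dark. After ad libitum feeding on normal chow, the mice had food for 7 days only in the light phase (daytime-restricted feeding, DRF) or only in the dark phase (nighttime-restricted feeding, NRF, the reference regimen). Whole kidneys were collected every 4 h over 24 h, from ZT0 (zeitgeber time, counted in h from the onset of light) to ZT24, and each of the 14 groups of regimen and time held 4 mice. Poly(A) RNA was sequenced as paired-end reads, and the clock hours of food access within each phase were not given in the sources used here.

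SREBPs are membrane-bound transcription factors that sense sterols in the endoplasmic reticulum. When sterols are scarce, Scap carries the SREBP precursor to the Golgi, where proteases release the active factor, and Insig proteins hold Scap back when sterols are plentiful. SREBP-2, from Srebf2, acts mainly on cholesterol synthesis, and SREBP-1c, a product of Srebf1, acts mainly on fatty acid synthesis and responds to insulin and to liver X receptors (LXR). In liver the fatty acid arm is well known to follow feeding, and the kidney makes sterols and fatty acids of its own.

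Between 25.48 and 28.21 M reads per library were recovered from the deposited values, and TPM on a linear scale was computed from them. Proximal tubule markers summed to between 35514 and 147331 TPM in every library, and most of the sum was Kap, at 27055 to 138240 TPM. Among the others Slc34a1 lay between 1865 and 4131 TPM and Lrp2 between 389 and 720. The 8 measured adrenal markers summed to between 57.0 and 77.1 TPM. Among them Fdx1 lay between 43.3 and 53.2 TPM, Scarb1 between 5.50 and 11.2, Akr1b7 between 2.67 and 11.2 and Star between 3.32 and 5.80. Cyp11a1 and Cyp21a1 reached at most 0.232 and 0.329 TPM. Liver markers summed to between 436 and 1043 TPM, with Alb between 15.7 and 303 TPM, and their part in the results was not tested. Adipose markers summed to between 36.6 and 3235 TPM, and 14 of the 56 libraries, 9 NRF and 5 DRF, were above 200 TPM. Each count below is also given without those 14 libraries where that moves it by over 1.5 times, an alternative chosen after the data were seen. The share of all genes called was not taken without those 14 libraries, so such counts have no share beside them. Replicates are separate mice, and the p-values measure the spread between them.

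A rhythm here means that a cosine of 24 h fitted log2(TPM + 1) with an adjusted p under 0.05 in limma's moderated F test, with Benjamini-Hochberg adjustment over all genes tested. Under NRF 23 of the 38 genes were rhythmic, against 53.8% of all genes tested. Under DRF 23 of 38 were rhythmic, against 35.1% of all genes. Without the 14 libraries high in adipose markers 13 of 38 were, and the 35.1% does not belong to that setting. Both regimens gave a rhythm in 17 of 38, against 24.6%. The interaction of regimen with the 24-h terms, the direct test that the rhythm differed between regimens, was called for 26 of 38 genes, against 45.5% of all genes. It was called for 16 of 19 genes of the sterol arm, 6 of 14 of the fatty acid arm and 4 of 5 regulators.

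Of the 17 genes rhythmic under both regimens, 10 had fitted peak times at least 8 h apart, so that 10 of the 38 genes were in this class against 7.73% of all genes tested. Acss2 was the only 1 of the 17 whose fitted peak time differed by at most 4 h, against 8.89% of all genes. Its peak lay at ZT8.9 ± 1.0 (SE) under NRF and ZT9.2 ± 0.71 under DRF. Acss2, the cytosolic acetyl-CoA synthetase, had group means between 50.3 and 68.0 TPM. The other 6 genes rhythmic under both regimens lay between 4 and 8 h. A fitted peak need not be the time of the highest group mean. Among sterol genes of the class with at least 8 h, Fdps, Lss and Msmo1 were highest at ZT0 or ZT24 under NRF and at ZT4 under DRF. Mvd was highest at ZT20 and ZT4, and Sc5d at ZT0 and ZT12.

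**Figure D1:**
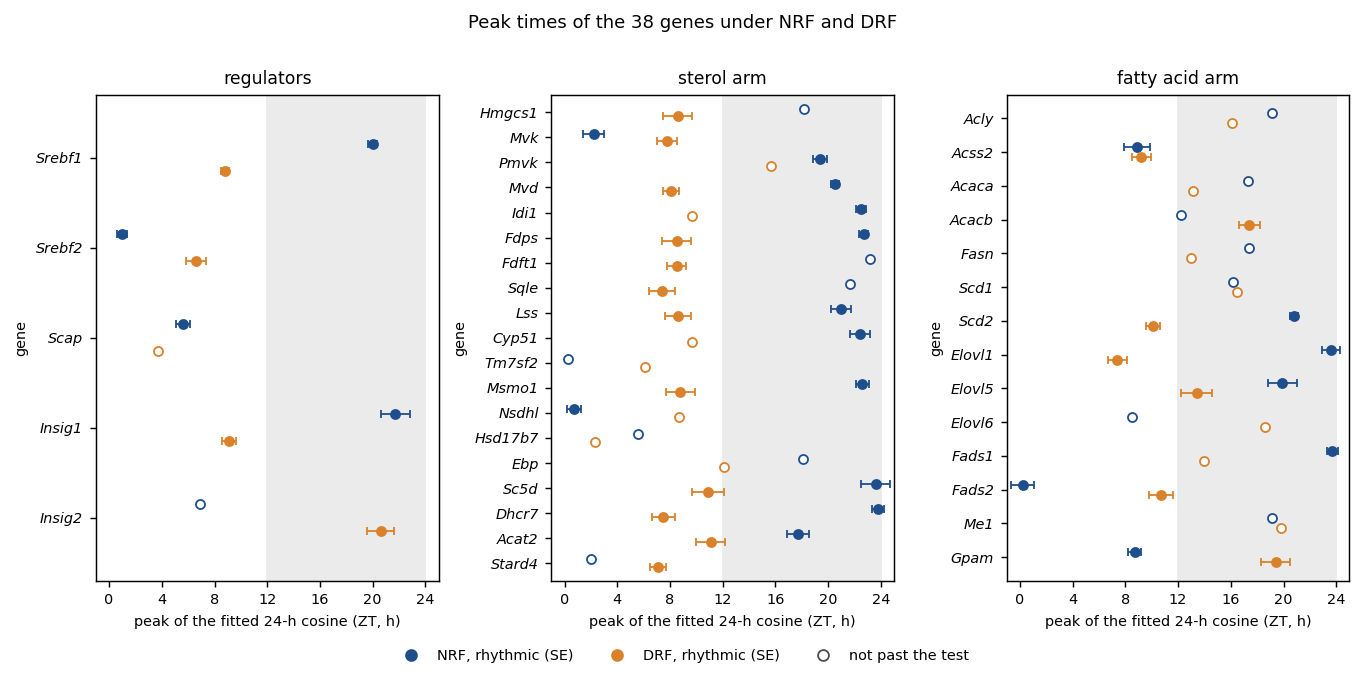
Peak time (ZT, h) of the fitted 24-h cosine for the 38 genes in 3 panels, NRF in blue and DRF in orange, with filled points and SE bars where the gene was rhythmic, open points where it was not, and the dark phase shaded. The rhythmic sterol genes peak at a median of ZT22.5 under NRF and ZT8.5 under DRF, the points of Acss2 lie together, and those of Gpam are placed the other way round from Scd2.

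Srebf1 (Entrez 20787, chromosome 11, 60199089 to 60222581, GRCm38) encodes the SREBP-1 isoforms and was high from ZT4 to ZT12 under DRF and from ZT16 to ZT24 under NRF. Under DRF the 4 mice had a mean of 17.5 ± 2.32 TPM (SD, n = 4) at ZT0, and 48.0, 48.6, 51.1 and 58.0 TPM at ZT4. They had 59.8, 62.4, 45.9 and 46.1 TPM at ZT8, and 53.7, 50.2, 66.1 and 54.1 TPM at ZT12. In the dark phase the DRF values fell back to a mean of 23.7 ± 3.49 TPM at ZT16, then 21.5 ± 5.91 at ZT20 and last 18.1 ± 0.398 at ZT24. The 12 DRF mice at ZT4, ZT8 and ZT12 were thus all above the 16 DRF mice at the other 4 times.

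Under NRF the same gene was lowest in the light phase, with a mean of 17.2 ± 2.09 TPM (SD, n = 4) and a range of 15.4 to 20.2 TPM at ZT8. It rose to 53.9, 49.8, 35.5 and 50.6 TPM at ZT16 and 63.9, 44.6, 41.1 and 53.7 TPM at ZT20. At ZT12 the NRF mice lay between 21.3 and 41.9 TPM, and the mouse at 41.9 TPM was the one with the highest adipose marker level, 3235 TPM. No Srebf1 value overlapped between the regimens at any of the 7 times. The differences, DRF minus NRF on the log2 scale, each with an SE of 0.16, were positive in the light phase, 0.92 at ZT4, 1.58 at ZT8 and 1.02 at ZT12. They were negative in the dark phase and at its end, -0.97 at ZT16, -1.22 at ZT20, -1.28 at ZT24 and -1.32 at ZT0. Each was called, with limma adjusted p from 5.4e-10 at ZT8 to 1.1e-04 at ZT16. The peak moved by 11.1 ± 0.46 h, to ZT8.8 ± 0.33 under DRF, with an interaction adjusted p of 4.1e-17.

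Srebf2 (Entrez 20788, chromosome 15, 82147181 to 82205379) did not follow Srebf1. Its NRF values were highest at the change from dark to light, with 53.5, 55.9, 55.6 and 56.0 TPM at ZT0, and 50.4, 55.5, 56.7 and 59.4 TPM at ZT24. Under DRF the highest group was ZT4, with 48.8, 52.9, 47.9 and 52.7 TPM, and the DRF mice at ZT0 had 37.2, 38.1, 36.7 and 36.2 TPM. The DRF and NRF mice did not overlap at ZT0, ZT20 or ZT24. Its peak went from ZT1.0 ± 0.38 to ZT6.6 ± 0.79, a shift of 5.7 ± 0.88 h with an interaction adjusted p of 2.0e-07. Srebf2 was also 1 of 3 members whose 24-h mean differed, at -0.13 ± 0.03 in DRF, with Tm7sf2 at 0.13 ± 0.04 and Ebp at 0.13 ± 0.03, against 9.99% of all genes tested.

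Insig1, which retains Scap in the endoplasmic reticulum and is itself a SREBP target, had the larger swing of the pair of Insig genes. It was at 26.9, 35.4, 27.1 and 24.6 TPM in the DRF mice at ZT0 and at 82.6, 103, 93.2 and 95.2 TPM at ZT4. The NRF mice at ZT0 had 86.2, 77.9, 71.4 and 81.0 TPM. The DRF mice at ZT0 were all below both other groups, which overlapped each other, and the difference at ZT0 was -1.45 ± 0.17 (limma adjusted p = 3.6e-08). Insig1 moved from ZT21.7 ± 1.1 to ZT9.1 ± 0.54. Insig2, the second retention protein, stayed between group means of 40.3 and 46.3 TPM and was rhythmic only under DRF, at ZT20.6 ± 1.0, on the opposite side of the day from Insig1. Scap, the escort protein, was rhythmic only under NRF, at ZT5.6 ± 0.55, with group means between 30.6 and 37.8 TPM.

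**Figure D2:**
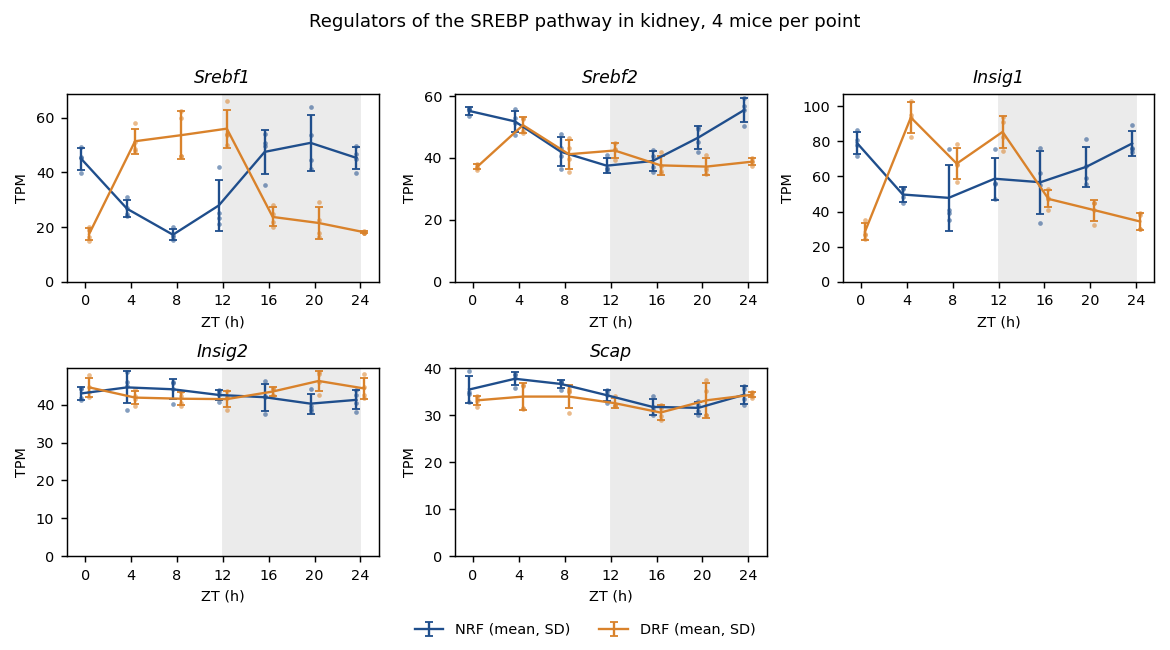
TPM of the 5 regulators against ZT (h), NRF in blue and DRF in orange, points for single mice and lines for the mean ± SD of 4 mice, with the dark phase shaded. Srebf1 has means of 51.4 to 56.0 TPM from ZT4 to ZT12 under DRF and of 45.0 to 50.8 TPM at ZT0 and from ZT16 to ZT24 under NRF, whereas Srebf2 peaks at ZT0 and ZT24 under NRF and at ZT4 under DRF.

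The sterol arm was highest 4 h into the light phase under DRF and at the end of the dark phase under NRF. In the DRF mice 15 of 19 sterol genes had their highest group mean at ZT4 and the other 4 at ZT12. In the NRF mice 13 of 19 had it at ZT0 or ZT24. The DRF minus NRF difference at ZT4 was called higher for 15 of 19 sterol genes, with none lower, and for 19 of all 38 members against 10.8% of all genes, while 2 of 38 were lower against 17.5%. At ZT0 12 of 19 sterol genes were lower and none higher, and over all members 20 were lower against 11.6% and 1 was higher against 7.18%. The median difference of the sterol arm was 0.52 at ZT4 and -0.58 at ZT0, where the medians of all genes tested were -0.05 and -0.06.

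Msmo1, the methylsterol oxidase that starts removal of the C4 methyl groups, had the widest swing of the sterol arm. In the DRF mice it rose from 13.0, 12.5, 13.4 and 14.2 TPM at ZT0 to 61.5, 70.4, 56.7 and 66.6 TPM at ZT4. It was back at 19.2, 22.9, 20.7 and 18.0 TPM at ZT8 and at a mean of 37.1 ± 2.39 TPM (SD, n = 4) at ZT12. The DRF profile therefore had a high group at ZT4, a low one at ZT8 and a second high group at ZT12, with no overlap between these 3 groups of mice. Under NRF it climbed from a mean of 17.2 TPM at ZT12, where the mice lay between 15.2 and 19.9, to 43.0 ± 3.99 at ZT0 and 45.2 ± 9.56 at ZT24. The difference was -1.62 ± 0.14 at ZT0 (limma adjusted p = 1.8e-11) and 1.49 ± 0.14 at ZT4 (limma adjusted p = 3.4e-11).

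Fdps, which makes farnesyl diphosphate, and Idi1, the isomerase before it, also had their highest DRF group at ZT4 and a lower one at ZT8. Fdps was at 11.2, 12.3, 13.4 and 11.9 TPM in the DRF mice at ZT0 and at 44.6, 46.9, 36.7 and 47.7 TPM at ZT4. It was at 16.6, 20.3, 18.2 and 15.9 TPM at ZT8. The ZT8 mice were all below the ZT4 mice and all above the ZT0 mice. Idi1 was at 87.9, 99.0, 69.2 and 102 TPM in the DRF mice at ZT4 and at 34.0, 41.8, 33.9 and 33.4 TPM at ZT8, and its second highest group was ZT16, at 57.7 ± 11.5 TPM (SD, n = 4). Its level rests on an annotated length at which its recovered reads were not whole, as do those of Fdft1 and Acat2.

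Mvd, the mevalonate diphosphate decarboxylase, was nearer to Srebf1 in time. In the NRF mice it peaked at ZT20.5 ± 0.30, with 89.2, 71.0, 75.9 and 73.8 TPM at ZT20. In the DRF mice it had 104, 107, 103 and 93.8 TPM at ZT4 and remained at 69.0 ± 4.85 TPM (SD, n = 4) at ZT8 and 70.3 ± 3.53 at ZT12. Its shift was 11.6 ± 0.69 h. Fdft1, squalene synthase, reached 54.0 ± 2.61 TPM at ZT4 under DRF, from 21.8 ± 2.20 at ZT0. Lss, lanosterol synthase, reached 14.1 ± 1.09 TPM from 5.95 ± 0.678.

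**Figure D3:**
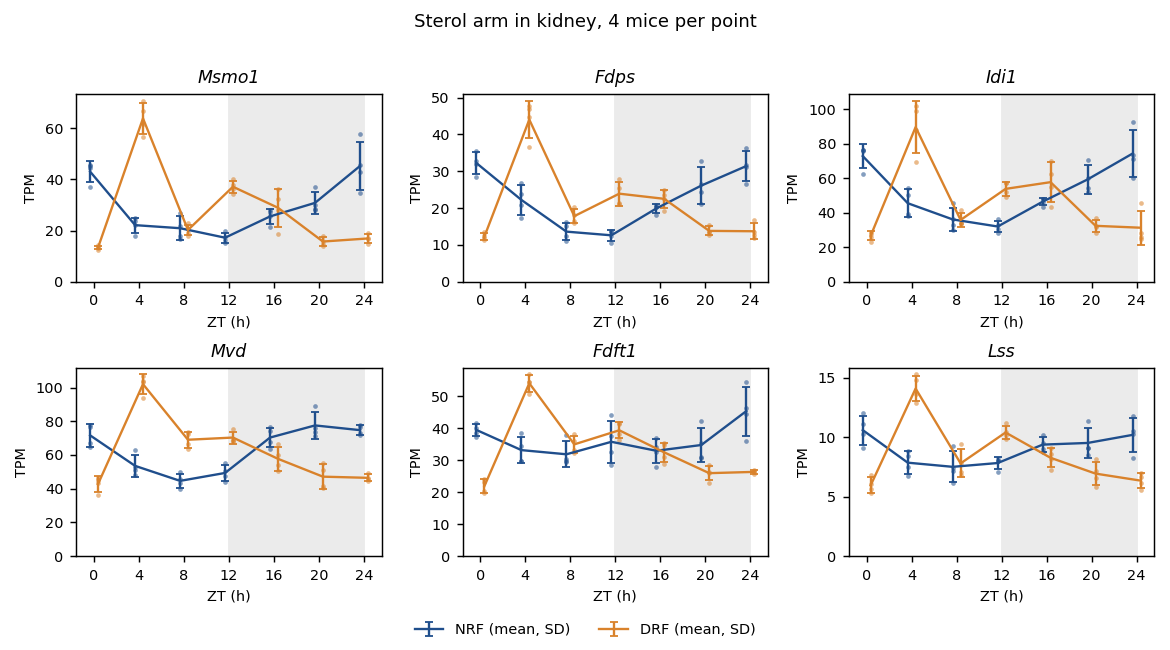
TPM of the 6 sterol arm genes with the widest range of group means against ZT (h), NRF in blue and DRF in orange, points for single mice and lines for the mean ± SD of 4 mice, with the dark phase shaded. Each gene has its highest DRF mean at ZT4 and a lower mean at ZT8, for example 63.8 and 20.2 TPM for Msmo1, while the NRF means change more slowly.

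Departure from a single daily cosine was tested as a 12-h component added to the 24-h terms. Under DRF it was called for 14 of 38 members, against 25.4% of all genes tested, of which 12 were among the 19 sterol genes and 2 among the 14 fatty acid genes, Fads1 and Elovl1. The smallest limma adjusted p were 1.2e-05 for Fdps, 2.2e-05 for Idi1, 3.4e-05 for Nsdhl and 1.1e-04 for Msmo1, with 12-h amplitudes of 0.61, 0.66, 0.40 and 0.73. The fitted 12-h component had its first crest at ZT3.8 for Fdps, Idi1 and Nsdhl and ZT3.5 for Msmo1, so it is not a test of the level at ZT12. Under NRF limma called 0 of 38, against 0.698% of all genes, and 10 of 38 had an unadjusted p under 0.05. None of the 5 regulators was called for the 12-h component in either regimen, with Srebf2 at an adjusted p of 0.085 and Srebf1 at 0.51 under DRF. The 24-h peak times of the sterol arm under DRF, with a median of ZT8.5 over the 12 rhythmic genes, therefore do not mark the time of the highest group mean.

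Other sterol genes had smaller swings. Hmgcs1, the cytosolic HMG-CoA synthase, had DRF means of 289 ± 58.0 TPM (SD, n = 4) at ZT0, 402 ± 32.6 at ZT4 and 315 ± 25.4 at ZT8. Cyp51, the lanosterol demethylase, was rhythmic only under NRF, between 278 and 370 TPM. Tm7sf2, Hsd17b7 and Ebp were rhythmic under neither regimen. Hsd17b7, a 3-ketosteroid reductase of the same segment of the pathway, was the only sterol gene lower in DRF at ZT8, at -0.72 ± 0.11 (limma adjusted p = 2.4e-06), after it had been higher at ZT4, at 0.67 ± 0.11. At ZT8 6 of 38 members were higher against 6.16% of all genes, and 1 of 38 was lower against 9.39%. Nsdhl was the only sterol gene called at ZT16, at 0.61 ± 0.13, where 3 of 38 members were higher against 2.22% and 1 was lower against 3.81%.

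At ZT12, ZT20 and ZT24 the sterol arm changed sides with the light phase. At ZT12 8 of 19 sterol genes were higher in DRF and none lower, and over all members 13 were higher against 7.86% of all genes and 1 was lower against 11.4%. Without the 14 libraries high in adipose markers 7 of 38 were called at ZT12, 7 at ZT20 and 2 at ZT16, from fewer mice, and 18 at ZT0, 22 at ZT4 and 21 at ZT24. No share of all genes was taken for these counts. At ZT20 11 of 19 were lower and none higher, and over all members 18 were lower against 6.70% and 2 higher against 10.8%. At ZT24 again 11 of 19 were lower and none higher, and over all members 19 were lower against 10.7% and 1 higher against 4.87%. Libraries at ZT24 repeat the clock time of ZT0. No member was called between ZT24 and ZT0 by limma under NRF, against 0.588% of all genes, with 0 at an unadjusted p under 0.05, nor under DRF, against 0%, with 3 at an unadjusted p under 0.05.

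Because sterol genes rose together, their promoters were searched for known binding motifs. Windows of 300 bases, from 250 before to 50 after the start of a transcript (RefSeq, GRCm38.p6), were found for 31 of the 38 genes and made up 42 of 32851 windows. Fdps, Fdft1, Sqle, Stard4, Scd1, Scd2 and Fads1 had no window, so the shares below do not cover them. CCAAT, the box bound by NF-Y, a partner of SREBPs at many sterol promoters, was present on either strand in 14 of 18 sterol windows (77.8%), 8 of 14 fatty acid windows (57.1%) and 37.4% of all windows. At least 2 CCAAT matches stood in 9 of 18 sterol windows (50%) and 11.7% of all windows, with overlapping matches counted separately. TCACNCCAC, a strict form of the sterol regulatory element, was found in 1 of 42 member windows (2.38%), that of Hmgcs1, and in 1.24% of all windows. CACGTG, the E-box, was in 7 of 42 member windows (16.7%) and in 7.15% of all windows. The member windows with it came from 6 genes, as the same Scap site was counted in overlapping windows. A match is a description of the letters and was not tested for binding.

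The 150 bases before the start are shown for 4 sterol genes and for Fasn, 5′ to 3′ on the strand of the gene, with CCAAT or its complement ATTGG and the sterol regulatory element in capitals. They stand at chr13:119690201-119690350 on the plus strand for Hmgcs1, chr8:64733579-64733728 on the minus strand for Msmo1, chr8:122443423-122443572 on the minus strand for Mvd, chr13:8885456-8885605 on the plus strand for Idi1 and chr11:120824548-120824697 on the minus strand for Fasn. Hmgcs1 is shown for its sterol regulatory element, the next 3 for paired CCAAT boxes in genes that rose at ZT4, and Fasn for comparison. Fasn has 3 matches in the stretch shown, with an overlap in CCAATTGG, where the next 3 genes have 2 each. The number of matches thus does not set Fasn below them.
Hmgcs1: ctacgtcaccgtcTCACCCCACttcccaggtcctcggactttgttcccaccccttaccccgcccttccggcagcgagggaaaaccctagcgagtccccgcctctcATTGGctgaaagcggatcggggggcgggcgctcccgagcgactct
Msmo1: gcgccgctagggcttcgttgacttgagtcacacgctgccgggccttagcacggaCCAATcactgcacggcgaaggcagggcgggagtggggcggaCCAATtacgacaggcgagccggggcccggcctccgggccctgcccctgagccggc
Mvd: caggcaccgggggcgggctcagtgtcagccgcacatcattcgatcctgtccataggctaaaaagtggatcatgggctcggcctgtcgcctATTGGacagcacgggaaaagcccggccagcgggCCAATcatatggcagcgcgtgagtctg
Idi1: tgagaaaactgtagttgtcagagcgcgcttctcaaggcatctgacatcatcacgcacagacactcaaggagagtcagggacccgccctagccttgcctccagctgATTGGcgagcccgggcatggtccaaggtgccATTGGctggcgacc
Fasn: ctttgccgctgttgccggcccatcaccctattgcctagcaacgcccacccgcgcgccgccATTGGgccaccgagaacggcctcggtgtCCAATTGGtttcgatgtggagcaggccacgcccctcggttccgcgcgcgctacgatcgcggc

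The fatty acid arm was less uniform. Its member nearest to Srebf1 was Scd2, a stearoyl-CoA desaturase. In the DRF mice it had 59.9, 69.1, 56.9 and 64.0 TPM at ZT0, and 165, 167, 146 and 165 TPM at ZT12. In the NRF mice it had 215, 166, 169 and 178 TPM at ZT0, and 97.6, 57.8, 64.8 and 66.9 TPM at ZT12. The regimens did not overlap at either time. Its peak moved from ZT20.8 ± 0.31 to ZT10.1 ± 0.51, a shift of 10.7 ± 0.59 h with an interaction adjusted p of 9.9e-15, and it did not carry a called 12-h component under DRF (adjusted p = 0.19). Scd2 and Scd1 are close paralogs, and reads shared between them could have been split by the counting.

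Gpam, the acyltransferase that starts glycerolipid synthesis, peaked on the opposite side of the day from Scd2 in both regimens. It was highest in the light phase under NRF, with 120, 139, 106 and 128 TPM at ZT8, and lowest at ZT24, with 69.7, 78.2, 67.7 and 81.4 TPM. Under DRF its highest group means were in the dark phase, with 117, 127, 133 and 101 TPM at ZT16 and 118, 104, 114 and 141 TPM at ZT20, and it was lowest at ZT12, with 78.2, 84.8, 71.9 and 79.1 TPM. Peaks lay at ZT8.7 ± 0.48 and ZT19.4 ± 1.1, each more than 8 h from the median of the arm in its regimen. The differences included 0.61 ± 0.13 at ZT20 (limma adjusted p = 6.3e-04) and -0.56 ± 0.13 at ZT12 (limma adjusted p = 0.0013).

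Fads2 and Fads1, the desaturases of polyunsaturated fatty acids, and Elovl1 and Elovl5, which elongate fatty acids, had NRF rhythms with peaks between ZT19.9 and ZT0.2. Fads2 moved by 10.4 ± 1.3 h, Elovl1 by 7.9 ± 0.97 h and Elovl5 by 6.5 ± 1.6 h, and Fads1 was rhythmic only under NRF. Fads1 was at -0.55 ± 0.09 at ZT0 and 0.39 ± 0.09 at ZT16. Acacb, which makes malonyl-CoA at the mitochondrion, was rhythmic only under DRF, at ZT17.4 ± 0.79. The other 6 genes, Acly, Acaca, Fasn, Scd1, Elovl6 and Me1, were rhythmic under neither regimen. They include Acly, Acaca and Fasn, the consecutive steps from citrate to palmitate.

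**Figure D4:**
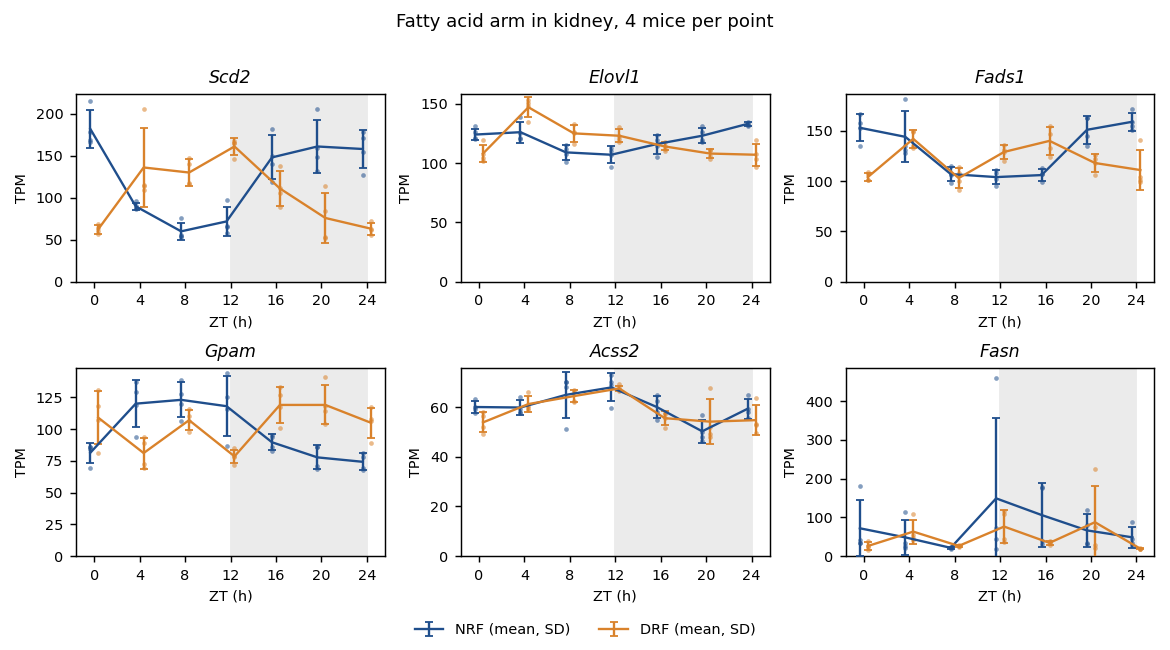
TPM of 6 fatty acid arm genes, Scd2, Elovl1, Fads1, Gpam, Acss2 and Fasn, against ZT (h), NRF in blue and DRF in orange. Points are single mice and lines the mean ± SD of 4 mice, with the dark phase shaded. Elovl1, Fads1 and Acss2 are not among the 6 genes of the arm with the widest range of group means. Fasn has wide SD bars in groups where 1 or 2 mice lie far above the others, for example 459 TPM in 1 NRF mouse at ZT12. Scd2 and Gpam swing in opposite directions.

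Fasn, the multi-domain enzyme that makes palmitate, varied widely between mice of a group. Its 4 NRF mice at ZT12 had 459, 44.3, 73.7 and 17.8 TPM, and its NRF mice at ZT0 had 180, 33.4, 33.3 and 40.3 TPM. Its 4 DRF mice at ZT20 had 75.6, 20.9, 29.1 and 224 TPM. In each of these groups 1 or 2 mice stood far above the others. In the 42 libraries with at most 200 TPM of summed adipose markers Fasn lay between 16.6 and 109 TPM, with a median of 29.0, and in the 14 libraries above 200 TPM between 39.5 and 459, with a median of 116. In bulk kidney, more adipose cells in a piece and more RNA per cell cannot be told apart.

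With the 14 groups as terms of the fit, the slope of log2(TPM + 1) per doubling of the summed adipose markers was called positive for 10 of 38 members, against 5.42% of all genes, and negative for none by limma, against 0.101%. It was called for 8 of 14 fatty acid genes, 1 of 19 sterol genes (Sc5d, 0.05 ± 0.013) and 1 of 5 regulators (Srebf1). The slopes were 0.61 ± 0.028 (SE) for Fasn, 0.44 ± 0.026 for Acaca and 0.25 ± 0.036 for Scd1. They were 0.18 ± 0.022 for Elovl6, 0.16 ± 0.021 for Acly and 0.15 ± 0.024 for Acacb, and below 0.1 for Me1 and Elovl5. The Srebf1 slope was 0.06 ± 0.020 with an adjusted p of 0.048, and without the 2 libraries highest in adipose markers it was 0.04 with an adjusted p of 0.27. Without the same 2 libraries Sc5d was not called either, with a slope of 0.05 and an adjusted p of 0.060. Scd2 and Gpam had slopes of 0.07 and 0.05 that were not called (adjusted p = 0.090 and 0.066).

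Of the 10 adipose markers 9 had a mean of at least 1 TPM, and limma called none of the 9 rhythmic in either regimen. Across libraries Adipoq ranged from 0 to 310 TPM and was 0 in 7 libraries, Cfd ranged from 0 to 1922 TPM and was 0 in 8, and Ucp1, the marker of brown adipocytes, ranged from 0 to 116 TPM and was 0 in 13. Fabp4, Plin4, Cidec and Aqp7 were above 0 in every library. Fabp4 had a median of 37.6 TPM and Aqp7 of 18.7 TPM, where the median sum over all libraries was 68.5 TPM. Aqp7 ranged only from 14.2 to 25.2 TPM. Each other marker had a median of at most 7.30 TPM. At its low end the sum is therefore mostly Fabp4 and Aqp7, and whether these came from adipose cells was not tested. Median sums were 68.5 TPM under NRF and 70.1 under DRF, and the highest group medians were at NRF ZT16 (555 TPM), NRF ZT12 (259) and DRF ZT12 (254).

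**Figure D5:**
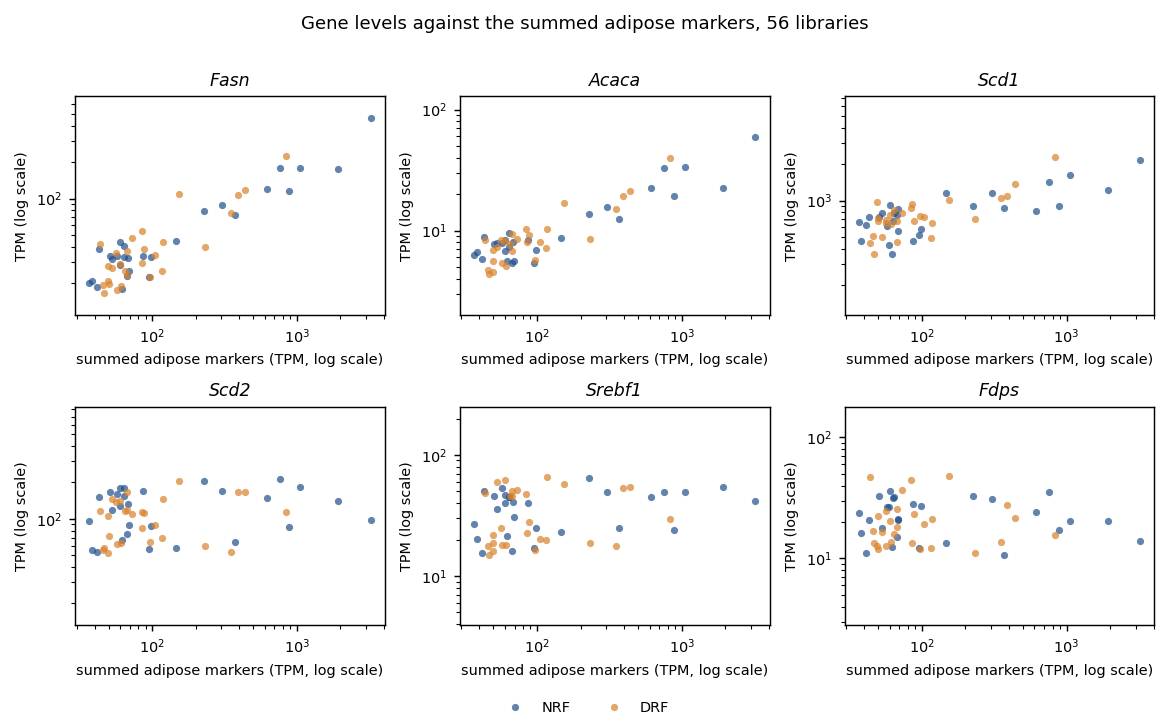
TPM of Fasn, Acaca, Scd1, Scd2, Srebf1 and Fdps against the summed TPM of 10 adipose markers, both on log axes, with 1 point for each of the 56 libraries, NRF in blue and DRF in orange. Fasn and Acaca climb with the marker sum, with slopes of 0.61 and 0.44 log2 units per doubling, and the Fdps slope was 0.00.

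With the adipose marker level as a covariate, an alternative chosen after the data were seen, the interaction of regimen and rhythm was called for 10 of 14 fatty acid genes in place of 6 of 14, and for 16 of 19 sterol genes and 4 of 5 regulators as before. The share of all genes called was then 46.9%. Fasn peaked at ZT20.2 under NRF and ZT9.2 under DRF in that fit, with adjusted p of 0.005 and 0.11 and an interaction adjusted p of 0.003. Acaca peaked at ZT19.9 and ZT10.0 with an interaction adjusted p of 0.003. Elovl6 and Acacb also gained the interaction call, with adjusted p of 0.0026 and 0.014, and had other peak times. Elovl6 peaked at ZT5.8 under NRF and ZT19.8 under DRF, with rhythm adjusted p of 0.011 and 0.14. Acacb peaked at ZT8.7 and ZT17.6, with rhythm adjusted p of 0.16 and 0.012. Scd1 was called rhythmic in neither regimen there. Beyond this fit and the counts without the 14 libraries, the part of the marker level in the fatty acid arm was not tested.

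The arms were also counted side by side at each time. At ZT4 2 of 14 fatty acid genes were higher and 1 lower, against 10.8% and 17.5% of all genes. The sterol arm had 15 of 19 higher, and the median differences were 0.04 and 0.52. At ZT0 5 of 14 were lower and 1 higher, against 11.6% and 7.18%, with a median of -0.44. The sterol arm had 12 of 19 lower with a median of -0.58. At ZT20 4 of 14 were lower and 1 higher, against 6.70% and 10.8%. At ZT8 2 of 14 fatty acid genes were higher and none lower, against 6.16% and 9.39%. The sterol arm had 2 of 19 higher and 1 lower there. At ZT16 2 of 14 and 1 of 19 were higher and none lower, against 2.22% and 3.81%. The difference between the arms was not tested as such, and members of an arm share a pathway and its regulators. Against their own mean over the 14 groups, all 19 sterol genes were above it at DRF ZT4 (median deviation 0.49), 6 of 19 at DRF ZT8 (-0.07) and 18 of 19 at DRF ZT12 (0.21). Of the 14 fatty acid genes 10 were above it at DRF ZT4 (0.06), 5 at DRF ZT8 (-0.21) and 11 at DRF ZT12 (0.12).

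The same phase of feeding was then compared across regimens, with times 12 h apart. These comparisons use the groups already described, in other pairs. Between DRF ZT4 and NRF ZT16, each 4 h after the start of the phase with food, 17 of 38 members were higher in DRF against 12.7% of all genes and none lower against 4.35%, with 1 lower at an unadjusted p under 0.05. Of these 13 were sterol genes. Msmo1 was higher by 1.29 ± 0.14, Fdps by 1.10 ± 0.12 and Nsdhl by 1.07 ± 0.13. Srebf2 was higher by 0.37 ± 0.07 and Insig1 by 0.77 ± 0.17, and Srebf1 was not called in this pair. The median difference of the sterol arm in this pair was 0.53, and that of the fatty acid arm was -0.15.

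Between DRF ZT8 and NRF ZT20, 4 h later, 8 of 38 members were lower against 5.91% and 2 were higher against 8.39%, and 5 were called in all without the 14 libraries high in adipose markers. The lower ones included 7 sterol genes, such as Idi1 at -0.71 ± 0.15 and Msmo1 at -0.58 ± 0.14, and the higher ones were Acss2 at 0.36 ± 0.08 and Gpam at 0.47 ± 0.13. Between DRF ZT12 and NRF ZT0 and ZT24 5 of 38 were lower against 13.5% and none higher by limma against 4.18%, with 3 higher at an unadjusted p under 0.05. Without the same 14 libraries 1 was called. The 5 were Srebf2 at -0.38 ± 0.06, Idi1, Fdps, Dhcr7 and Fads1.

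In the phase without food, between DRF ZT16 and NRF ZT4, 3 of 38 were higher against 6.32% and 5 lower against 26.4%. Srebf2 was lower there, at -0.45 ± 0.07. Between DRF ZT20 and NRF ZT8 3 of 38 were higher against 4.64% and 2 lower against 7.72%, and Scd1 was among the higher ones at 1.06 ± 0.36, with 2 called in all without the 14 libraries. The 9 tested adipose markers had a median difference of 1.59 in this pair, and DRF ZT20 mouse 4, with 835 TPM of markers, had 2287 TPM of Scd1 where the other 3 had 933 to 1044. The 4 NRF mice at ZT8 had 462 to 764 TPM of Scd1, below all 4 DRF mice. Between DRF ZT0 and ZT24 and NRF ZT12, at the end of the phase without food, 8 of 38 were lower against 5.31% and none higher by limma against 5.04%, with 0 higher at an unadjusted p under 0.05. They included Srebf1 at -0.57 ± 0.13, Insig1 at -0.88 ± 0.15 and Fasn at -1.70 ± 0.57. The NRF ZT12 mouse with 3235 TPM of adipose markers is in this comparison, and without it 3 of 38 members were called, and 2 without all 14 libraries.

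Likeness to Srebf1 was described by Pearson's r over the 14 group means, which share the feeding phase and the libraries and carry no test. Scd2 had the third highest r of all genes tested, at 0.92, after Galnt3 and Flad1, both at 0.94, and before Prdm10 and Vcp at 0.92. Of the other members Mvd was at 0.91 and Insig1 at 0.88, at ranks 11 and 20 among all genes tested. Gpam was at -0.79 and Insig2 at -0.84. The sterol arm had a median r of 0.68 with Srebf1 and of 0.72 with Srebf2, and the fatty acid arm of 0.48 and 0.22, against -0.02 and 0.15 for all genes tested. Dhcr7, which makes cholesterol in the last step of the pathway, was at 0.90 with Srebf2 and 0.68 with Srebf1.

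Other lists of the pathway were compared by the same test. The LXR and carbohydrate response axis had an interaction call for 6 of 8 tested genes, where the share of all genes was 45.5%. Nr1h3, which encodes LXR-alpha, peaked at ZT20.7 ± 0.26 under NRF and ZT9.3 ± 1.1 under DRF, close to Srebf1 in both. Nr1h2, the other LXR gene, peaked at ZT6.8 ± 0.32 and ZT0.8 ± 0.79, away from Srebf1 in both. In the same list Abcg1 peaked at ZT18.6 ± 0.89 and ZT9.6 ± 1.2, and Mylip at ZT11.9 ± 0.79 and ZT13.4 ± 1.1. Txnip, a gene that carbohydrate response factors induce, peaked at ZT7.9 ± 0.27 and ZT19.1 ± 0.66, opposite to Srebf1. Genes of SREBP processing and degradation had interaction calls for 7 of 9, among them the sterol-regulated ubiquitin ligase Rnf145 (ZT17.5 and ZT10.7) and Erlin1 (ZT22.1 and ZT6.5). NADPH supply had 1 of 6, Idh1, and other fatty acid and glycerolipid genes had 8 of 18, near the share of all genes. All 14 clock genes tested were called for the interaction, a test that also responds to amplitude, and each had a lower fitted amplitude under DRF. Their peaks moved by between 0.1 ± 0.75 h (Cry2) and 3.3 ± 0.45 h (Per2), with 2.1 ± 0.28 h for Arntl, where Srebf1 moved by 11.1 h.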

How the data were processed

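Reads were mapped with HISAT2 and Bowtie2 and quantified with RSEM on mm10 or GRCm38.p6, per the submitters' processing notes, with versions and options not given in the sources used here. The deposited values, named TPM by the authors, were not linear TPM but a score that follows log2(CPM + 1) divided by gene length and scaled to sums of 999145 to 999753 per library. The design had assumed linear TPM. Whole reads were recovered from the score for 88.9% of genes, with 99.37% of values whole within 0.05 of a read (GENCODE M21 lengths, or lengths found by search for Tm7sf2, Scd1, Scd2, Fads1, Fads2 and Gpam), and 25.48 to 28.21 M reads per library. Genes with fractional reads were left out of the tests, except the members Idi1, Fdft1 and Acat2, which were kept at annotated lengths.

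Genes with mean TPM of at least 1 were tested on log2(TPM + 1), a pseudocount of 1 that understates changes of low genes, with limma 3.58.1 in R 4.3.3, a mean-variance trend and Benjamini-Hochberg adjustment over all 11896 genes. Rhythms used the 28 libraries of a regimen, other tests all 56. Group tests were fitted with the 14 groups as terms, and ZT24 took the phase of ZT0. The scripts were tested on simulated data. Full values were given for the regulators and for the 6 members of each arm with the widest range of group means at mean TPM of at least 5, and other members were named where their peak lay over 8 h from that of their arm or a count was 5 or fewer. Some members were named outside this rule after their values were seen. The members, arms, lists and tests were chosen with earlier results of these data known. 1 NRF ZT24 column carried a number that no label gives, and it was used as a library with no number. Libraries of a group differed by at least 6.79 times the counting noise. Some sterol genes outside the list are not reported here.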

Additional observations from a re-analysis of the deposited data

Results flagged for a closer look

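Of 238 sets of 4 mice (17 genes in 14 groups), 22 held a mouse far from the other 3 by Dixon's test at the 95% level, and chance alone gives about 1 in 20 sets. No explanation was tested for these mice.

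Among the regulators, Srebf1 was at 18.6 TPM in DRF ZT24 mouse 1, where the others were at 17.8 to 17.9. Srebf2 was at 53.5 TPM in NRF ZT0 mouse 1 and at 41.0 in NRF ZT12 mouse 2. Scap was at 30.4 TPM in DRF ZT8 mouse 3 and at 34.2 in DRF ZT12 mouse 3. Insig1 was at 89.2 TPM in NRF ZT24 mouse 2.

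In the sterol arm, NRF ZT0 mouse 3 was low for Msmo1 at 37.1 TPM and for Idi1 at 62.4 TPM. Fdps was at 18.0 TPM in NRF ZT16 mouse 3, Idi1 at 41.8 TPM in DRF ZT8 mouse 2 and Fdft1 at 37.9 TPM in NRF ZT8 mouse 4.

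In the fatty acid arm, NRF ZT0 mouse 1 was high for Fasn at 180 TPM and for Acaca at 33.1 TPM, and its adipose markers summed to 760 TPM. Acaca was at 19.3 TPM in NRF ZT4 mouse 4, whose adipose markers summed to 884 TPM. Acacb was at 47.0 TPM in NRF ZT12 mouse 1, with 3235 TPM of adipose markers, and at 17.7 TPM in the NRF ZT24 mouse with no number. Scd1 was at 2287 TPM in DRF ZT20 mouse 4, with 835 TPM of adipose markers, and at 728 TPM in DRF ZT16 mouse 3. Scd2 was at 206 TPM in DRF ZT4 mouse 4, at 146 in DRF ZT12 mouse 3 and at 75.6 in NRF ZT8 mouse 1. Gpam was at 69.2 TPM in NRF ZT0 mouse 2. The part of the adipose marker level in these values was not tested mouse by mouse.

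The summed adipose markers stood apart in NRF ZT24 mouse 2, at 304 TPM. The regimens also differed in rhythm by the interaction test for 26 of the 38 genes.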

How the results depend on the processing

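Of 476 phase shifts and largest differences of named genes under the alternatives, 450 kept their direction and side of the threshold, 17 lost the call, 9 gained it and 0 turned direction. Counts of members called moved by over 1.5 times in the cases below, and the cause was not tested beyond the smaller number of mice. The share of all genes called was taken in the covariate fit for the interaction alone. Under the other alternatives no such share was taken, so these counts stand without one. Without the 14 libraries over 200 TPM of adipose markers, the count went from 23 to 13 for rhythms under DRF, from 3 to 1 for the mesor, from 14 to 7 at ZT12, from 4 to 2 at ZT16 and from 20 to 7 at ZT20. In the pairs 12 h apart it went from 10 to 5 for DRF ZT8, 5 to 1 for DRF ZT12, 5 to 2 for DRF ZT20 and 8 to 2 for DRF ZT0 and ZT24. With the adipose level as a covariate, the 12-h component under DRF went from 14 to 24, the DRF ZT20 pair from 5 to 3 and the DRF ZT0 and ZT24 pair from 8 to 5. The deposited scale gave 9 for the DRF ZT20 pair. Without the ZT24 groups the DRF ZT12 pair had 3 and the DRF ZT0 and ZT24 pair 5.

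Leaving out single libraries or all libraries of 1 replicate number gave 11 to 25 for rhythms under DRF, 11 to 19 for the 12-h component under DRF, 1 to 5 for the mesor, 4 to 9 at ZT8, 1 to 5 at ZT16 and 12 to 21 at ZT20. In the pairs it gave 6 to 11 for DRF ZT8, 3 to 6 for DRF ZT12, 4 to 9 for DRF ZT16, 1 to 6 for DRF ZT20 and 3 to 9 for DRF ZT0 and ZT24. Single libraries that moved a count were, for the mesor, DRF ZT4 mouse 4 (5), at ZT8 DRF ZT8 mouse 2 (4), and for the DRF ZT12 pair DRF ZT12 mouse 1 (3). For the DRF ZT16 pair they were DRF ZT16 mice 1 (4) and 4 (5) and NRF ZT4 mouse 3 (5). For the DRF ZT20 pair they were DRF ZT20 mice 1 (2) and 2 (3) and NRF ZT8 mice 3 (2) and 4 (1). For the DRF ZT0 and ZT24 pair they were mouse 2 of DRF ZT0 and of DRF ZT24 (5 each) and NRF ZT12 mice 1 (3), 2 and 3 (5 each).

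Replicate numbers did not pair the mice. Deviations of mice with the same number correlated between -0.79 and 0.76, with a median of -0.01 over 351 pairs. With the number as a replicate block, 24 members were rhythmic under NRF, 22 under DRF and 26 had the interaction, and the 12-h component was called for 0 under NRF and 14 under DRF. The block gave 21, 21, 8, 14, 3, 20 and 19 at ZT0, ZT4, ZT8, ZT12, ZT16, ZT20 and ZT24, 3 for the mesor, and 17, 10, 5, 9, 5 and 8 for the pairs from DRF ZT4 to DRF ZT0 and ZT24. Levels and folds of Idi1, Fdft1 and Acat2 depend on the length taken for them.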

Other observations

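The slope on the adipose marker level was also called for genes outside the 38. It was called positive for 10 of 18 tested genes of the other fatty acid and glycerolipid list and for 4 of 6 genes of NADPH supply, and by limma for 0 of 9 genes of SREBP processing and 0 of 8 of the LXR and carbohydrate response axis. The list share in each case stands beside 5.42% of all genes tested. Thrsp, a lipogenic protein of liver and fat, had a slope of 1.04, Pnpla3, a lipid droplet protein, 0.69, Agpat2, an acyltransferase of glycerolipid synthesis, 0.27, and Pnpla2, the lipase that starts triglyceride breakdown, 0.16.

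Pnpla2 peaked at ZT9.5 ± 0.60 (SE) under NRF and ZT19.7 ± 0.83 under DRF, on the same side of the day as Gpam in both regimens. Acsl1, which activates long-chain fatty acids, had an amplitude of 0.76 (log2 scale) at ZT20.9 ± 0.33 under DRF and of 0.18 at ZT5.0 ± 1.1 under NRF (interaction adjusted p = 2.6e-10). Fads3 moved from ZT0.6 ± 0.54 to ZT8.9 ± 0.82. Abca1, the cholesterol exporter induced by LXR, was higher in DRF at ZT8, by 1.10 on the log2 scale (limma adjusted p = 3.6e-05). It was also higher at ZT0, by 0.66, and at ZT24, by 0.61 (limma adjusted p = 0.011 and 0.020). Abca1 was not called rhythmic in either regimen (adjusted p = 0.059 under NRF and 0.46 under DRF).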
